A study of Mus musculus with 39 samples.

Results

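The genes described here are 31 immediate early genes and 10 heat shock genes of the mouse, 41 of the 53465 gene rows in the table. They were taken by name as members of these 2 families, from a list drawn up with earlier results of these data known, and all 41 had a measurable level in at least 3 libraries and could be tested. The study sequenced mRNA of cells sorted as myeloid-derived suppressor cells, a mixed population of immature myeloid cells that restrains T cells, from marrow, spleen and intestine. There were 39 libraries in 13 groups of 3. Marrow came from wild-type C57BL/6 newborns labelled P7 and gave a G sort, an M sort and unsorted single cells. Spleens came from mice labelled BALB/c with an immune deficiency and from APCmin/+ mutants, a strain that develops intestinal adenomas, and each strain gave a G sort, an M sort and a combined G+M sort. The intestine of APCmin/+ mutants gave the same 3 sorts and unsorted single cells. The labels do not spell out G and M, nor do they give the surface markers of the sorts, the tissue digestion, the age of the mice that gave spleen and intestine, the kind of immune deficiency or whether the 3 libraries of a group are separate animals. The p-values therefore measure the spread between these libraries, which may be technical. In tissue and strain the groups are confounded: marrow was taken only from newborn C57BL/6 mice and intestine only from APCmin/+ mice.

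Immediate early genes are transcribed within minutes of a stimulus, without new protein synthesis. The transcription factors that drive them are already in the cell and respond to MAP kinase, cAMP or NF-kB signals. Many of these genes encode transcription factors themselves (FOS, JUN, EGR, NR4A and KLF proteins). Others encode the phosphatases, RNA-decay factors and inhibitors that end the response. Heat shock genes encode chaperones that hold or refold proteins, and HSF1 raises the inducible ones when unfolded proteins accumulate. Both families are known to respond to the warming, enzyme treatment and sorting by which single cells are prepared from tissue.

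Values are TPM, the share of transcripts that belong to a gene, which is a level per transcript length that can be compared between genes. A member was called higher or lower where limma's adjusted p over all 18466 tested genes was under 0.05 and the difference was at least 1 on the scale of log2(TPM + 1), which is 2-fold for well-expressed genes and understates the fold of low ones. The table keeps no read depth. In bulk RNA, fewer cells of a type and less RNA per cell cannot be told apart.

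The labels were checked against marker genes, given as the summed TPM of each list. The intestinal sorts were low in neutrophil markers, and less so in those of other myeloid cells. The 12 neutrophil markers summed to 53.8 to 301 TPM in the 4 intestinal groups and to 6721 to 136600 TPM in the 9 others. The monocyte markers summed to 137 to 647 TPM in the intestinal groups, highest in the M sort, and to 646 to 4719 TPM in the marrow groups. The macrophage markers summed to 110.5 to 361 TPM in the intestinal groups and to 201 to 349.9 TPM in marrow, so these ranges overlapped. The spleen had more. In single libraries they summed to 868.7 to 1868 TPM in the APCmin/+ splenic G sort and to 94.82 to 230.1 TPM in the intestinal one. The M sorts had 1110 to 4450 TPM in that spleen and 178.4 to 347.4 TPM in the intestine. The combined sorts had 248 to 2776 TPM and 91.67 to 141.4 TPM. The 12 epithelial markers summed to 12790 to 15080 TPM in the intestinal groups, sorted or not, and to 20.2 to 66.4 TPM elsewhere. The intestinal sorts are therefore named by their labels only. Unsorted marrow held 81820 TPM of erythroid markers, against 2262 TPM in its G sort and 975 TPM in its M sort. Transcripts encoded by the mitochondrial genome, a sign of RNA and cell quality, made up 2.10% to 2.93% of TPM in the marrow groups and 10.2% to 15.8% in the intestinal ones. In the spleen they made up 8.31% to 10.2% in the G and combined sorts and 3.70% to 4.18% in the M sorts. The part of these differences in the results below was not tested.

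Promoter sequence was at hand for 33 of the 41 members (RefSeq, GRCm38.p6, 250 bases before to 50 after the start), and 4 motifs were searched on both strands. The stretches shown are those that held a motif, each once, since they are the part of the sequence by which members of a family can be compared. The heat shock element, searched as GAANNTTCNNGAA, lay in 3 of 7 heat shock promoters (Hspd1, Hspe1 and Hsph1), in 0 of 26 immediate early promoters and in 0.662% of the 27025 genes with a promoter. Hspd1 and Hspe1 encode the 2 parts of the mitochondrial chaperonin and lie head to head on chromosome 1, overlapping by 112 bases, so their match is the same stretch read on opposite strands, with 2 overlapping matches. In GENCODE it falls in an exon of Hspd1. The match of Hsph1 lies after the start, from base 37 in the entry shown, and its stretch falls in an exon of Hsph1. Capitals mark the motif.
Hspe1, chr1:55088053-55088082, plus strand: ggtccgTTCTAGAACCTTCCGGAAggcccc
Hsph1, chr5:149636287-149636308, minus strand: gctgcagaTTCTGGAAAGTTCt

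The cAMP response element TGACGTCA, bound by CREB and ATF proteins, lay in 4 of 26 immediate early promoters and in 2.03% of all genes. These 4 are shown because their genes gave different results in the marrow sorts described below: Dusp1 rose, Ppp1r15a fell, and Btg2 and Maff were not called.
Btg2, chr1:134079303-134079332, minus strand: gttcccaataaTGACGTCAgtgagcgatga
Dusp1, chr17:26508597-26508626, minus strand: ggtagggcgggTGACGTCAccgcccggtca
Maff, chr15:79347480-79347509, plus strand: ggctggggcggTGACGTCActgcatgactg
Ppp1r15a, chr7:45526262-45526291, minus strand: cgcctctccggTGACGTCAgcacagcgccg

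The CArG box, bound by serum response factor, lay in the promoters of Egr2 and Zfp36 (2 of 26, against 1.81% of all genes), and Egr2 held 2 boxes, before different annotated starts. The AP-1 site TGACTCA, which FOS and JUN dimers bind, lay in 0 of 26 and 0 of 7 of these windows and in 5.95% of all genes. These matches describe letters in a window of 300 bases and say nothing of binding.
Egr2, chr10:67537484-67537513, plus strand: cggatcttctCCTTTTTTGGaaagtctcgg
Egr2, chr10:67537787-67537816, plus strand: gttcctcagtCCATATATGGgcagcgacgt
Zfp36, chr7:28379267-28379296, minus strand: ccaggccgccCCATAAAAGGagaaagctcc

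Averaged over its 31 members on the log2 scale, the immediate early family was lowest in unsorted marrow (3.45 ± 0.04, SD, n = 3) and highest in unsorted intestine (5.86 ± 0.17). The marrow sorts lay at 4.84 ± 0.12 (G) and 4.42 ± 0.22 (M), the 6 splenic sorts between 4.73 and 5.24, and the intestinal sorts between 5.28 and 5.56. The heat shock family had another order. Its mean was 5.89 ± 0.02 in unsorted marrow, above the marrow sorts (5.30 ± 0.09 and 5.23 ± 0.15), and ranged from 4.91 to 6.00 in the splenic sorts. In the intestine it was 6.66 to 6.92, with an SD of 0.73 to 0.87 between libraries of 1 group, so the intestinal groups do not stand apart from each other on this measure. The plot of family means by library shows that spread.

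**Figure D1:**
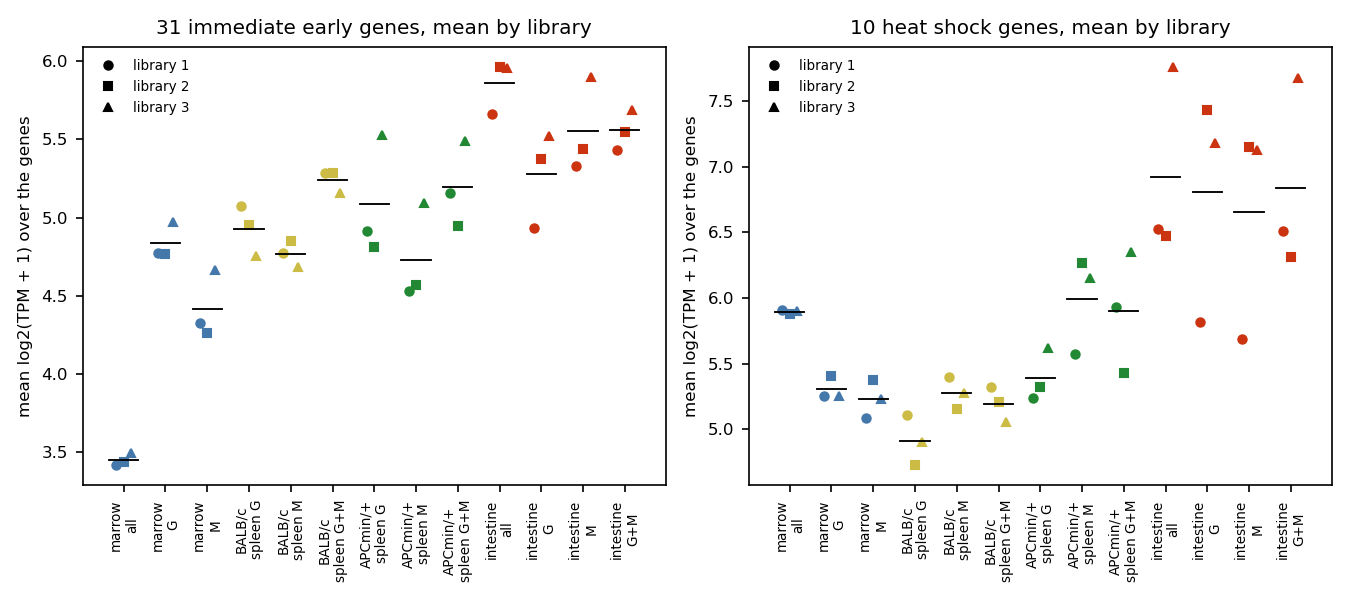
Mean log2(TPM + 1) over the 31 immediate early members and over the 10 heat shock members, 1 point per library, by group, with a bar at the mean of the 3 libraries. Unsorted marrow is lowest for the immediate early genes, and the heat shock means of the intestinal libraries spread from 5.68 to 7.76.

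Members differed widely in how far they ranged. Fosb ran from a group mean of 0.167 TPM in unsorted marrow to 202 TPM in the intestinal M sort, and Jund only from 51.1 TPM in the marrow M sort to 218 TPM in unsorted intestine. All 12 intestinal libraries were above all 27 others for 8 of 31 immediate early members (Fosb, Fosl1, Jun, Atf3, Maff, Egr1, Egr2 and Nr4a2), a share of 25.8%, against 13.3% of all tested genes. In the heat shock family this held for Hspb1 alone, 1 of 10. Dusp2 was the only member whose 12 intestinal libraries lay below all others, which held for 2578 of the 18466 tested genes. Fosl1 reached 1 TPM in the 12 intestinal libraries and in no other, so it passed the filter on low values through them and had to differ. The same is true of Hspb1, which reached 1 TPM in those 12 and in 1 other.

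**Figure D2:**
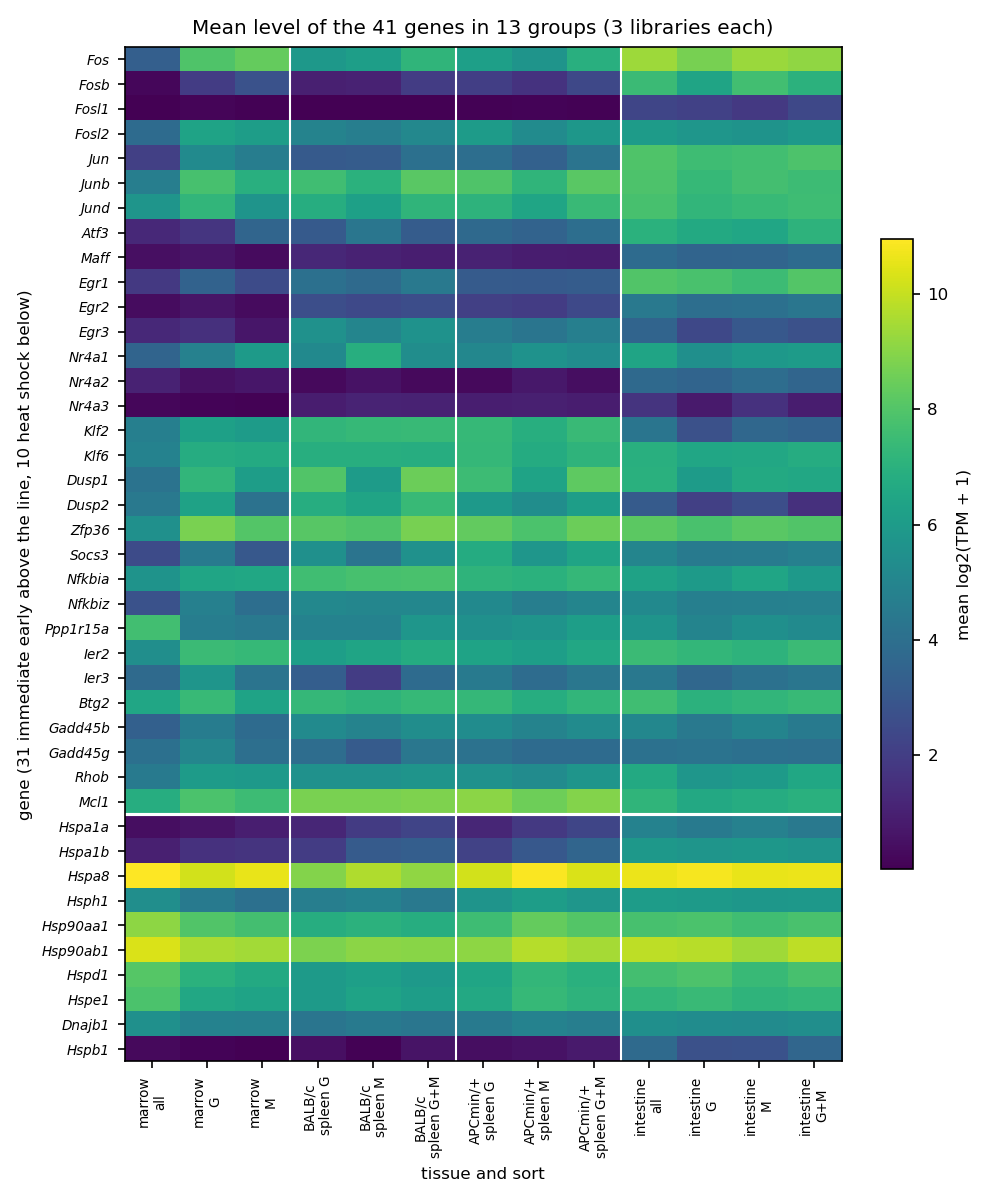
Level of each of the 41 members as the mean log2(TPM + 1) over the 3 libraries of each of the 13 groups, shown by colour. Fosb, Jun, Egr1 and Atf3 are highest in the 4 intestinal columns, whereas Klf2, Dusp2 and Mcl1 are higher in the splenic columns than in the intestinal ones.

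The first comparison asked how the sorted marrow cells differ from all marrow cells. Of the 31 immediate early members, 21 were higher and 1 was lower in the G sort, where 9.65% of all genes were higher and 9.49% lower. In the M sort 14 were higher and 1 lower, against 7.87% and 11.2% of all genes. The median immediate early difference was 1.49 for G and 0.69 for M, and the median over all genes was -0.03 and -0.10. Both comparisons share the 3 unsorted libraries, so they are not independent.

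Fos, the partner of JUN proteins in AP-1, had 9.69, 10.1 and 7.55 TPM in the 3 unsorted marrow libraries. The G libraries had 203, 233 and 316 TPM and the M libraries 280, 287 and 439 TPM. No sorted library came near an unsorted one: G cells differed by 4.62 ± 0.36 (SE, adjusted p = 2.75e-11) and M cells by 5.03 ± 0.36 (adjusted p = 8.4e-12), from limma. Jun went the same way, from 3.42, 3.06 and 3.42 TPM to 30.9, 41.5 and 39.9 TPM in the G sort, a difference of 3.15 ± 0.26. Its M sort libraries had 19.8, 24.9 and 27.8 TPM, a difference of 2.54 ± 0.26. Of the 9 AP-1 members, 6 were higher in each sort. Fosb, Fosl2 and Junb were among them in both sorts, Jund passed in G alone (1.49 ± 0.20) and Atf3, a stress-induced repressor, in M alone (2.30 ± 0.38). The direct comparison of the sorts, below, gives the test of those differences.

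Among the growth factor response genes, Egr1 rose in the G sort from 2.33, 2.85 and 2.66 TPM to 8.41, 8.19 and 15.03 TPM, a difference of 1.63 ± 0.33. Its M sort libraries, with 3.97, 2.74 and 9.58 TPM, overlapped the unsorted ones and were not called (0.69 ± 0.33, adjusted p = 0.0875). Egr2 and Egr3 were called in neither sort. Nr4a1, an orphan nuclear receptor, rose by 1.31 ± 0.38 in G and by 2.44 ± 0.38 in M. Library 3 was the highest of each, at 50.3 TPM against 19.4 and 21.4 for G and at 103 against 47.3 and 47.5 for M, and without that G library the G difference was 0.89 and no longer called. Klf2, a factor of quiescence, and Klf6 both rose in both sorts, Klf6 from 27.8 to 28.8 TPM to at least 90.4 TPM in every sorted library.

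Of the 7 genes grouped as feedback on the response, 5 rose and 1 fell in the G sort, and 3 rose and 1 fell in the M sort. Zfp36, which encodes the mRNA-decay factor tristetraprolin, rose from 45.9, 46.1 and 43.3 TPM to 317, 487 and 512 TPM in G (3.22 ± 0.21) and to 234, 240 and 304 TPM in M (2.49 ± 0.21). Dusp1, a phosphatase of MAP kinases, rose by 3.04 ± 0.41 and 1.96 ± 0.41. Dusp2, a related phosphatase, held 77.7, 77.8 and 78.5 TPM in the G sort against 20.7, 22.7 and 19.1 TPM unsorted, while the M libraries had 15.98, 16.7 and 17.5 TPM. It was called in G (1.86 ± 0.35) and not in M (-0.30 ± 0.35). Socs3, an inhibitor of cytokine receptors, was likewise called in G (1.93 ± 0.39) and not in M (0.48 ± 0.39). Compared directly, G was above M by 2.16 ± 0.35 for Dusp2 and by 1.45 ± 0.39 for Socs3 (limma adjusted p = 1.48e-05 and 0.00452). The gene that fell was Ppp1r15a, which encodes the GADD34 subunit that restores translation after stress. It had 234, 137 and 251 TPM in unsorted marrow and 19.0 to 26.5 TPM in the 6 sorted libraries, and it fell by 3.01 on the log2 scale in G (adjusted p = 4.85e-09) and fell by 3.23 in M (adjusted p = 2.02e-09). The erythroid marker sum was 89800, 54990 and 100700 TPM in the same 3 unsorted libraries, lowest in the library that had the least Ppp1r15a, and its part in the result was not tested.

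**Figure D3:**
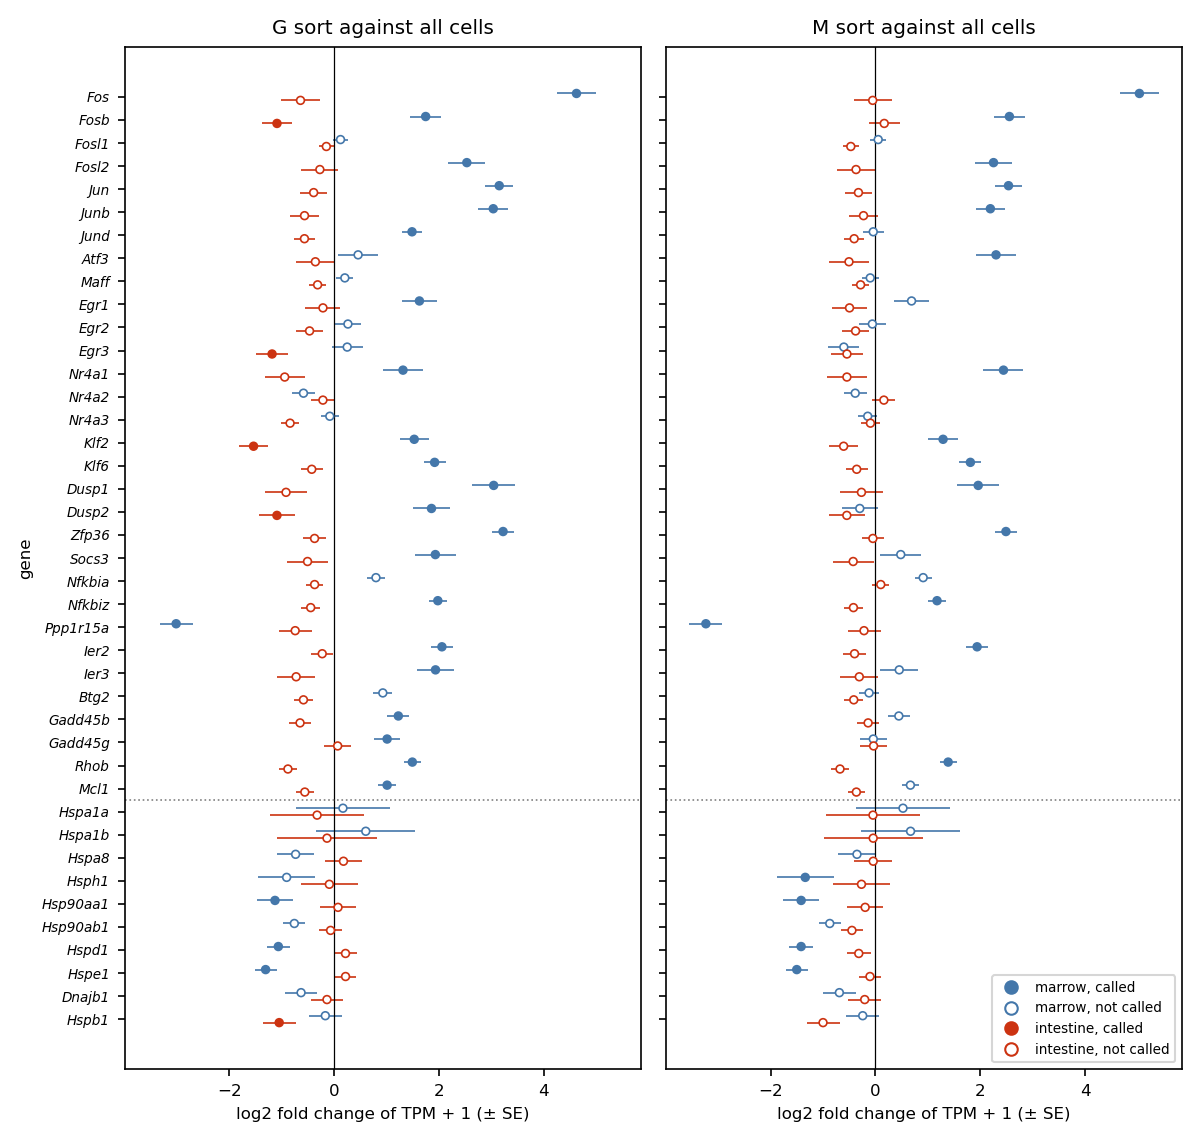
Difference of each member between a sort and the unsorted cells of the same tissue, on the log2(TPM + 1) scale, for the G and M sorts of marrow and of intestine, with bars of 1 SE and filled points for called genes. In marrow most immediate early genes lie to the right of 0, up to 5.03 for Fos, and in the intestine most lie at or left of 0.

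The remaining members concern growth and survival. In the G sort 6 of these 7 rose, Ier2 most (2.06 ± 0.21), along with Ier3, Gadd45b, Gadd45g, Rhob and Mcl1, and in the M sort 2 of 7, Ier2 and Rhob. Gadd45g (1.01 ± 0.25) and Mcl1, an anti-apoptotic relative of BCL2 (1.01 ± 0.17), passed the 2-fold minimum narrowly and fell under it when single libraries were left out.

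Heat shock members gave calls in the other direction in marrow. By limma 0 of 10 were higher in either sort, and 0 had an unadjusted p under 0.05 in that direction. In G 3 were lower, where 9.65% of all genes were higher and 9.49% lower. In M 4 were lower, where these shares were 7.87% and 11.2%. Hsp90aa1, the inducible HSP90, had 582, 549 and 518 TPM unsorted, 223, 281 and 252 TPM in G and 183, 224 and 211 TPM in M. Every sorted library was below every unsorted one, and it fell by 1.13 (SE 0.35) and fell by 1.42 (SE 0.35). Hspe1 fell from 232, 242 and 228 TPM to 83.0, 109 and 91.9 TPM in the G sort. It fell by 1.30 there and its partner Hspd1 fell by 1.06, a call that was lost after rescaling (-0.99). In M, Hspe1 fell by 1.50 and Hspd1 fell by 1.42. Hsph1, a nucleotide exchange factor for HSP70, fell in the M sort by 1.34, but with an adjusted p of 0.0423, and the call was lost when any of the 6 libraries was left out. Hspa1a and Hspa1b, the inducible HSP70 pair, were at 0.20 to 2.51 TPM in all 9 marrow libraries. Values of Hspa1a, Hspa1b, Hspa8, Hsp90aa1, Hspb1, Hspd1 and Hspe1 are uncertain in this sense: 23.7% to 68.0% of the 75-base stretches of their transcripts also occur in another gene or pseudogene.

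The same question was asked in the intestine, where no member was higher in any sort. In the G sort 4 of 31 immediate early members and Hspb1 were lower, with 0.157% of all genes higher and 5.23% lower. In the M sort 0 of 41 were called by limma, with 0.742% of genes higher and 3.68% lower (rescaling moved the share of higher calls among all called genes from 16.8% to 38.9%), although 9 members had an unadjusted p under 0.05, all lower. In the combined sort only Dusp2 was lower, with 0.0108% of genes higher and 3.23% lower. The 3 comparisons share the unsorted intestinal libraries.

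In the G sort Klf2 had the largest fall of the 5. It stood at 10.3, 22.7 and 26.6 TPM in unsorted intestine and at 4.76, 5.65 and 6.92 TPM in the G sort, with no overlap, and fell by 1.53 (SE 0.28, adjusted p = 0.000225). Egr3 (-1.18), Fosb (-1.09), Dusp2 (-1.09) and Hspb1, a small heat shock protein (-1.05), were the others, and the libraries of Dusp2 and Hspb1 overlapped. Unlike Klf2, these 4 lost the call when 1 of 2 or 3 particular libraries was left out. In the combined sort Dusp2 had 1.61, 1.92 and 2.27 TPM against 4.70, 11.3 and 9.60 TPM unsorted and fell by 1.63 (adjusted p = 0.00251). Fos, in contrast, was at 561, 664 and 768 TPM in unsorted intestine and at 324 to 788 TPM in the 9 sorted libraries, and no sort was called. The summed B and plasma cell markers differed widely between these groups, at 45420 TPM unsorted, 8077 TPM in the G sort and 112400 TPM in the M sort, and their part in the falls was not tested.

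The difference between the tissues was itself tested, as the mean of the G and M differences in the intestine minus the same in marrow. It was negative for 21 of 31 immediate early members and positive for 1, Ppp1r15a (2.64 ± 0.39). Of all genes 5.83% had a positive and 12.7% a negative difference, and rescaling moved the positive share of the called genes from 31.4% to 42.2% with the member counts unchanged at 4 and 21. Fos led with -5.17 ± 0.45 (adjusted p = 3.25e-10), then Jun (-3.20 ± 0.32), Dusp1 (-3.09 ± 0.50), Zfp36 (-3.07 ± 0.26) and Junb (-3.01 ± 0.35). For the heat shock family it was positive for Hsp90aa1 (1.21), Hspd1 (1.19) and Hspe1 (1.46), and that of Hsp90aa1 was lost without unsorted intestinal library 1 or 2. Strain, age and cell makeup differ between the tissues as well and cannot be told apart from tissue here.

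Unsorted intestine was then compared with unsorted marrow. Of 31 immediate early members 24 were higher and 2 lower, Dusp2 and Ppp1r15a, and of 10 heat shock members 3 were higher and 1 lower, against 19.9% of genes higher and 19.4% lower. The median immediate early difference was 2.27 and the median of all genes -0.13. Rescaling the libraries by their median ratio moved the all-gene median by 0.22, the higher share of all called genes from 50.6% to 63.8%, and the member calls from 27 higher and 3 lower to 28 higher and 1 lower. The call of Dusp2 (-1.26 ± 0.35) was lost without unsorted intestinal library 1 (-0.93). All 9 AP-1, 3 EGR and 3 NR4A members were higher. The higher members include Fosl1 and Hspb1, which passed the filter on low values through the intestinal libraries and had to differ. Fosb had 0.18, 0.13 and 0.19 TPM in unsorted marrow and 135, 197 and 212 TPM in unsorted intestine, a difference of 7.26 ± 0.29 (adjusted p = 1.41e-19). Egr1 had 2.33 to 2.85 TPM and 233 to 305 TPM (6.15 ± 0.33), and Atf3 1.15 to 1.75 TPM and 112 to 154 TPM (5.73 ± 0.38).

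The next comparisons set each intestinal sort against the same sort of APCmin/+ spleen, the only tissues that share a strain. In each of the 3 sorts the same 9 immediate early members were higher: Fos, Fosb, Fosl1, Jun, Atf3, Maff, Egr1, Egr2 and Nr4a2. Among these Fosl1 passed the filter on low values through the intestinal libraries and had to differ. For G cells 7 were lower, against 18.7% of genes higher and 22.2% lower. For M cells 5 were lower, against 14.2% and 25.7%, and for the combined sort 7, against 19.5% and 19.9%. Rescaling moved the all-gene median by 0.16 in the G and combined sorts and by 0.43 in the M sort. There it moved the member calls, heat shock included, from 12 higher and 5 lower to 20 higher and 3 lower, and the share of higher calls among all genes from 35.7% to 60.8%. The epithelial and neutrophil marker sums given above separate the same groups, and their part was not tested.

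In the higher group Egr1 rose in each sort. It had 10.2, 5.24 and 8.95 TPM in the splenic G sort and 167, 229 and 282 TPM in the intestinal G sort, a difference of 4.65 ± 0.33 (adjusted p = 1.73e-13). The M cells differed by 4.40 ± 0.33 and the combined ones by 4.82 ± 0.33. Fosb had 1.22 to 6.21 TPM over the 6 splenic G and M libraries and 66.9 to 239 TPM over the 6 intestinal ones. It differed by 4.34 between the G sorts and by 6.02 between the M sorts. Jun differed by 3.60 to 4.23 and Nr4a2, an NR4A receptor, by 3.13 to 3.25. Fos, already at 36.1 to 192 TPM in the spleen, differed less, by 2.22 to 3.62. Not all of the AP-1 family took part: Fosl2, Junb and Jund were not called in any of the 3 sorts, with Junb at 94.9 to 461 TPM in spleen and 124 to 266 TPM in the intestinal sorts.

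The lower group was made of Egr3, Klf2, Dusp2, Mcl1 and Socs3 in all 3 sorts. Dusp1 and Nfkbia, which encodes the NF-kB inhibitor, joined them in the G and combined sorts. As a count this group was near the background in G and combined cells and under it in M cells. The shares of the 31 members were 22.6% (G), 16.1% (M) and 22.6% (combined), against 22.2%, 25.7% and 19.9% of all genes. Klf2 had 162, 121 and 216 TPM in the splenic G sort and 4.76 to 6.92 TPM in the intestinal one, a fall by 4.60 (SE 0.28, adjusted p = 3.15e-15). Dusp2 fell by 3.82 (G), fell by 2.76 (M) and fell by 4.62 (combined). Mcl1 stood at 301 to 767 TPM in the 9 splenic libraries of this strain and at 85.6 to 132 TPM in the 9 sorted intestinal ones, and its differences were -2.45 (G), -1.74 (M) and -1.96 (combined). Egr3 thus went against its relatives Egr1 and Egr2, with 11.6 to 32.7 TPM in spleen and 2.66 to 10.8 TPM in the intestinal sorts. The calls of Dusp1 in the G sort and of Socs3 in the M sort rested on splenic library 3: without it they were -0.91 and -0.61 and no longer called. For Egr3 in the M sort the same held for splenic library 1 (-0.94). After rescaling the M sort calls of Egr3 (-0.655) and Socs3 (-0.54) and the G sort call of Nfkbia (-0.936) were lost.

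**Figure D4:**
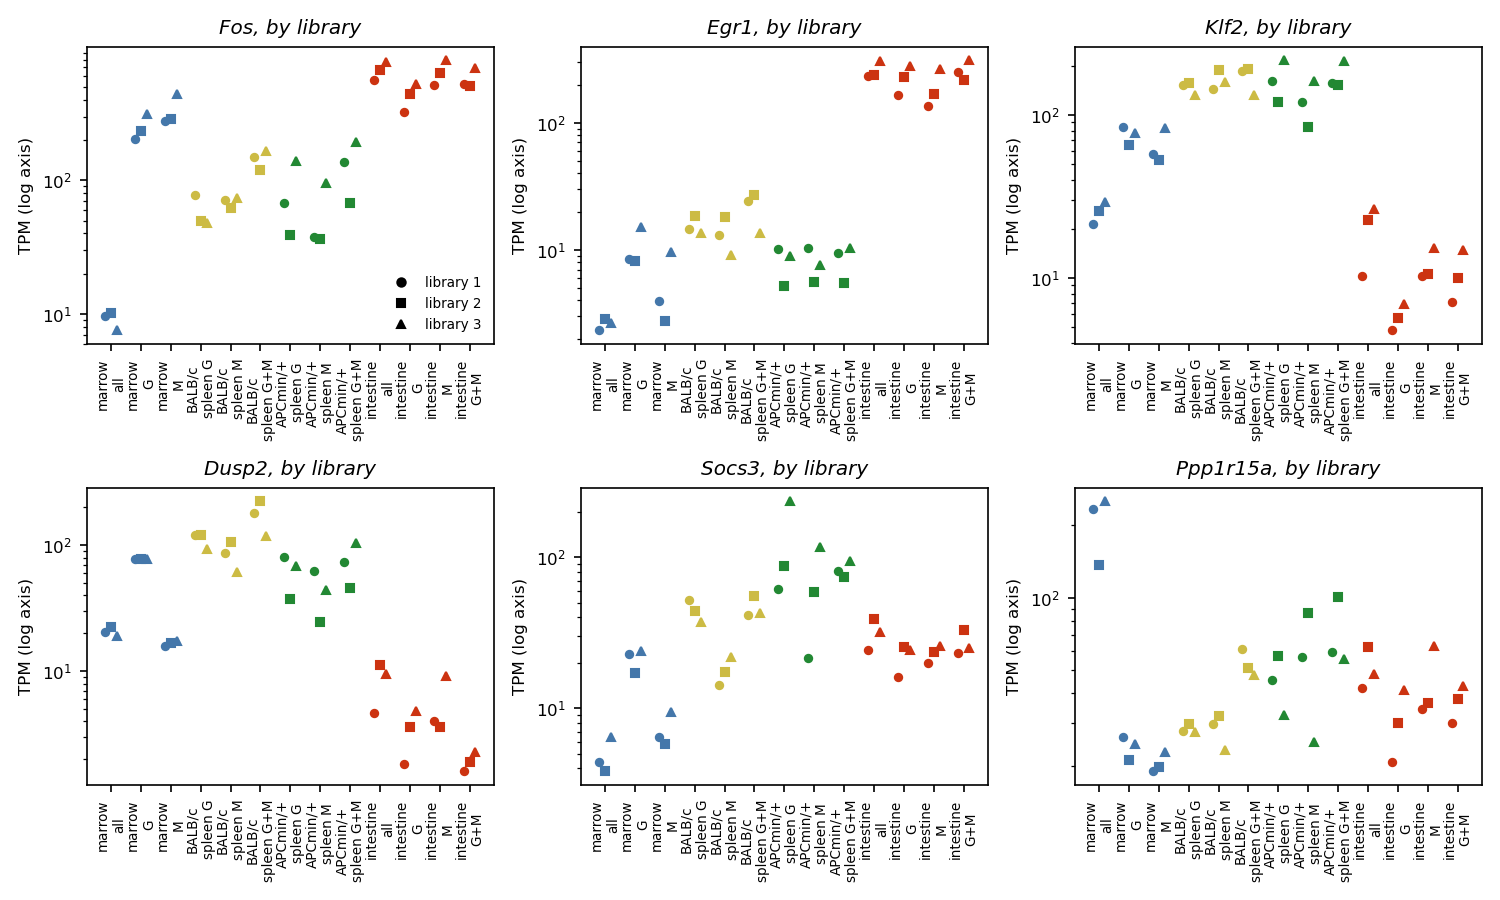
Level in TPM, on a log axis, of 6 members by group, with 1 point per library. Fos and Egr1 are higher in the 12 intestinal libraries than in the splenic ones, Klf2 and Dusp2 are lower there, and Ppp1r15a is highest in unsorted marrow.

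In the heat shock family 4 of 10 were higher in G, 3 in M and 2 in the combined sort, against 18.7%, 14.2% and 19.5% of all genes, so the count of the combined sort was at the background. By limma 0 were lower, with 0, 1 and 0 lower at an unadjusted p under 0.05. Hspb1, which passed the filter on low values through the intestinal libraries and had to differ, was higher in all 3, by 2.31, 2.23 and 2.79, at 2.88 to 18.7 TPM in the sorted intestinal libraries and no more than 1.01 TPM in the splenic ones. Hspa1a was also called in all 3, by 3.36 ± 0.90 (adjusted p = 0.00142), 2.98 ± 0.90 (adjusted p = 0.00392) and 2.15 ± 0.90 (adjusted p = 0.0345). Its libraries overlapped in the M and combined sorts. Hspa1b, beside it on chromosome 17 and separated by 9951 bases, passed in G (3.51 ± 0.95) and M (2.77 ± 0.95), and Hspd1 in G alone (1.46 ± 0.22). The M call of Hspa1b was lost without splenic library 1 (2.22) or intestinal library 3 (2.28), and the combined call of Hspa1a without splenic library 1 (2.07) or 2 (1.56) or intestinal library 3 (1.05).

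The large standard errors of the HSP70 pair come with large differences between libraries of 1 group. In unsorted intestine Hspa1a had 14.99, 13.2 and 107 TPM, and in the combined sort 13.2, 6.34 and 98.8 TPM, so in both groups library 3 was high. The G libraries had 4.88, 45.0 and 45.4 TPM and the M libraries 6.71, 46.8 and 59.5 TPM, so in both of those library 1 was low. Hspa1b had a like pattern, with 34.9, 22.1 and 223 TPM unsorted, 33.6, 16.04 and 218 TPM combined, 11.9, 114 and 94.0 TPM in G and 14.7, 98.0 and 108 TPM in M. Of the 75-base stretches of Hspa1a 52.7% occur in Hspa1b, and 55.8% of those of Hspa1b occur in Hspa1a. The values of this pair are therefore not independent. The unsorted and combined libraries thus shared an order, and in G and M library 1 was the lowest for both genes. Of the heat shock members, 7 of 10 differed at least 2-fold between the highest and the lowest unsorted intestinal library, and 7, 6 and 7 did so in G, M and the combined sort. Of all genes with a mean of at least 5 TPM, 7.5%, 5.4%, 6.4% and 5.4% did, and of the immediate early members 4 of 29, 1 of 27, 3 of 29 and 1 of 28. In the G sort all 27 immediate early and all 10 heat shock members were lowest in library 1, as were 7992 of 10320 genes.

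Without the 4 intestinal libraries numbered 3, an alternative chosen after the data were seen, Hspa1a differed between unsorted intestine and marrow by 3.49 (adjusted p = 0.000406) instead of 4.43. Against spleen it then differed by 2.86 (G) and 2.43 (M), and by 1.05 in the combined sort, where the call was lost (adjusted p = 0.255). What sets these libraries apart was not tested.

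**Figure D5:**
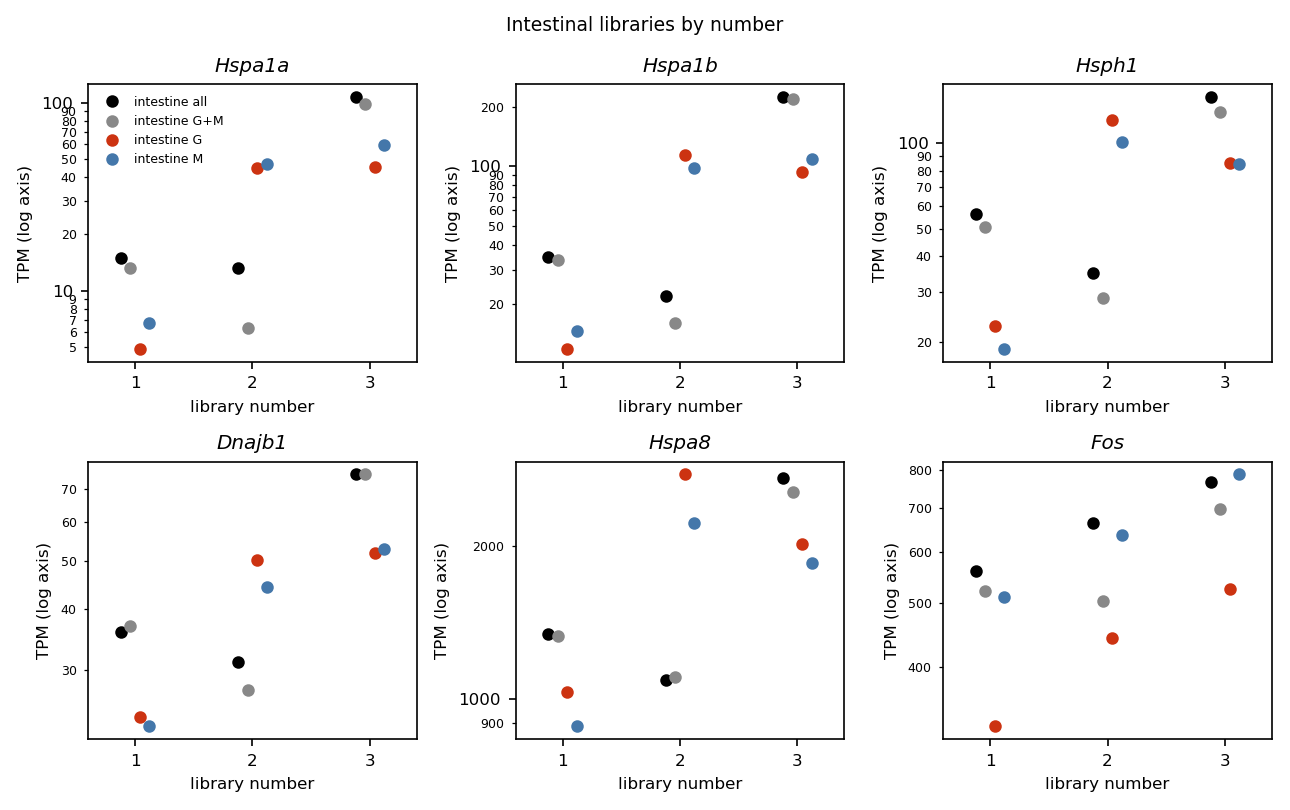
Level in TPM, on a log axis, of 5 heat shock members and of Fos in the intestinal libraries, by library number. Each point is 1 library, coloured by its group, and Hspa1a and Hspa1b are highest in library 3 in the unsorted and combined groups and lowest in library 1 in the G and M sorts.

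G and M sorts of the same tissue were then compared. In marrow 7 immediate early members were higher in G and 2 in M, against 6.89% and 3.33% of genes. Dusp2 (2.16 ± 0.35), Jund (1.53 ± 0.20), Ier3 (1.48 ± 0.36), Socs3 (1.45 ± 0.39), Dusp1 (1.08 ± 0.41), Btg2, an antiproliferative gene (1.05 ± 0.18), and Gadd45g (1.05 ± 0.25) were higher in G. Atf3 (-1.84 ± 0.38) and Nr4a1 (-1.13 ± 0.38) were higher in M. The libraries of Dusp1 and of Nr4a1 overlapped. Dusp1 was lost without G library 2 (1.18) or 3 (0.81) or M library 1 (0.88) or 2 (0.83), Nr4a1 without G library 1 (-0.88) or 2 (-0.95) or M library 3 (-0.76), and Btg2 (0.94) and Gadd45g (0.97) without M library 2. In BALB/c spleen 3 were higher in G and 2 in M, against 1.71% and 3.24% of genes, and all 5 were among the marrow ones: Dusp1 (1.97 ± 0.41), Ier3 (1.30 ± 0.36) and Socs3 (1.28 ± 0.39), and on the M side Nr4a1 (-1.63 ± 0.38) and Atf3 (-1.19 ± 0.38). Nr4a1 had 40.4, 36.6 and 33.0 TPM in the BALB/c G sort and 114, 114 and 116 TPM in the M sort. These 2 comparisons share no library. In BALB/c spleen the call of Ier3 was lost without G library 2 (1.14), that of Socs3 without G library 1 (1.17) or 2 (1.28) or M library 1 (1.14), and that of Atf3 without any of 4 libraries (-1.16 to -1.08). Rescaling moved the share of calls higher in G, over all genes, from 34.5% to 45.7% there. The monocyte markers summed to 4719 TPM in the marrow M sort and 646 TPM in the G sort, and to 4263 TPM and 849 TPM in BALB/c spleen. In marrow the B and plasma cell markers were at 4283 TPM in G and 804 TPM in M, the stromal and endothelial ones at 432 and 80.5 TPM, and the neutrophil ones at 136600 and 134800 TPM. In BALB/c spleen the neutrophil markers were at 23640 TPM in G and 6721 TPM in M. The part of these markers was not tested.

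In APCmin/+ spleen Dusp1 alone was called, higher in G by 1.14 ± 0.41 (adjusted p = 0.045), where 0.579% of genes were higher in G and 2.64% in M (107 of these calls higher and 487 lower, or 235 and 279 after rescaling). Its libraries overlapped, at 148, 101 and 394 TPM in G and 45.8, 73.2 and 162 TPM in M, and the call was lost without G library 3 (0.58) or M library 1 (0.73) or 2 (1.06). With the library number as a block, since same-numbered libraries of these sorts deviated together, 2 members were called. In the intestine Fosb was lower in G (-1.26 ± 0.29, adjusted p = 0.00621), where 0.0704% of genes were higher in G and 2.76% in M. Its libraries had 66.9, 84.6 and 101 TPM in G and 168, 198 and 239 TPM in M. No heat shock member was called between G and M in any tissue by limma, while at an unadjusted p under 0.05 there were 4 in APCmin/+ spleen, lower in G, 1 in the intestine, higher in G, and 0 in marrow and in BALB/c spleen.

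The G to M difference of the intestine minus that of APCmin/+ spleen was negative for Fosb (-1.68 ± 0.41), Junb (-1.12 ± 0.40), Klf2 (-1.39 ± 0.39) and Dusp1 (-1.78 ± 0.57). It was positive for Hsp90ab1 (1.01 ± 0.30), Hspd1 (1.36 ± 0.32) and Hspe1 (1.01 ± 0.30), against 4.92% of genes positive and 3.6% negative. The calls of Junb, Dusp1, Hsp90ab1 and Hspe1 were each lost without any of 4 to 6 single libraries. Rescaling moved the all-gene median of this difference by -0.27, the positive share of all calls from 57.8% to 21.3% and the member calls from 3 positive and 4 negative to 0 positive and 17 negative. The positive direction of the chaperones is therefore given for TPM as deposited only.

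Between the strains, each splenic sort of APCmin/+ mice was set against that of BALB/c mice, a comparison in which strain, immune status and Apc genotype go together and cannot be told apart. In the G sort Fosb, Fosl2, Socs3, Ier3 and Hspa8 were higher and 0 members lower, against 3.1% of genes higher and 5.77% lower. Between the M sorts Socs3, Ier3, Hspa8, Hsp90aa1 and Hspd1 were higher and Nr4a1 lower, against 5.51% and 5.97%. Rescaling moved the higher share of all calls from 34.9% to 48.3% for G and from 48.0% to 59.6% for M, and the member counts to 6 and 0 and to 7 and 1. Between the combined sorts Hspa8, Hsp90aa1 and Hspd1 were higher and Egr1 and Dusp2 lower, against 3.61% and 5.39%. Hspa8, the constitutive HSP70, was thus higher in all 3 sorts, by 1.31 ± 0.36, 1.26 ± 0.36 and 1.23 ± 0.36. It had 511, 462 and 475 TPM in the BALB/c G sort and 1027, 1275 and 1300 TPM in the APCmin/+ one. Ier3, an early gene of cell survival, had 3.17, 2.79 and 2.86 TPM in the BALB/c M sort and 6.98, 20.3 and 18.2 TPM in the APCmin/+ one, a difference of 1.91 ± 0.36 (adjusted p = 0.00012). Markers of other cells moved with the strain: from BALB/c to APCmin/+ the neutrophil sum went from 23640 to 76120 TPM in G, from 6721 to 88550 TPM in M and from 19170 to 52740 TPM in the combined sort. The erythroid sum went from 5801 to 11760 TPM, from 6346 to 17960 TPM and from 2838 to 10070 TPM. Their part was not tested.

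Single APCmin/+ libraries weighed heavily here. Library 3 was the highest for 20 of 25 immediate early members in G, 19 of 25 in M and 23 of 25 in the combined sort. Over all genes with a mean of at least 5 TPM this held for 3170 of 10304, 3946 of 10700 and 6591 of 10357. Socs3 had 61.2, 86.9 and 234 TPM in the G sort, and all 4 immediate early calls of that sort (Fosb 0.68, Fosl2 0.69, Socs3 0.72, Ier3 1.02) were lost without library 3. Fosl2 (0.91), Socs3 (1.16) and Ier3 (1.03) were also lost without BALB/c library 3, and Fosl2 (1.01) without APCmin/+ library 2. In the M sort Hspa8 (1.06), Hsp90aa1 (0.93), Hspd1 (0.76) and Nr4a1 (-0.64) were lost without library 2, and Socs3 (0.99) without library 3. In the combined sort Egr1 (-1.003) and Dusp2 (-0.93) were lost without library 2, Dusp2 also without BALB/c library 2 (-1.03), Hspa8 (0.87) without library 3 and Hsp90aa1 (1.08) without library 1, while Hspd1 was lost without library 1 (0.92) or 2 (0.94) or BALB/c library 3 (0.89). Ppp1r15a had an order of its own, highest in library 2 in all 3 sorts (57.3, 85.9 and 101 TPM) and lowest in library 3. The neutrophil marker sum also differed between these libraries, from 26310 to 140100 TPM in the G sort, with library 2 highest in each sort. The erythroid sum was lowest in library 3 in each sort, at 5836, 5592 and 5115 TPM against 6794 to 24820 TPM in the other libraries. The part of either was not tested.

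Other genes of the same pathways were counted from lists chosen with earlier results of these data known. Of 35 further early response genes, 16 were higher and 2 lower in marrow G cells and 14 higher and 4 lower in M cells. Of all genes 9.65% were higher and 9.49% lower in G, and 7.87% and 11.2% in M. Trib1, a pseudokinase that promotes protein decay, rose by 3.22 ± 0.22 in G, from 3.34 to 40.1 TPM on average, and Klf4, a monocyte factor, by 3.09 ± 0.26 in M. In the intestinal sorts 0 were higher and 2, 2 and 1 lower by limma, where 5.23%, 3.68% and 3.23% of all genes were lower. Between intestine and APCmin/+ spleen 11 were higher and 12 lower in G, 12 and 10 in M and 13 and 11 in the combined sort. The shares of all genes there were 18.7% and 22.2%, 14.2% and 25.7%, and 19.5% and 19.9%, so all genes divided both ways as well, and the lower count in M was near the background. Cyr61, a matricellular gene, differed by 5.09 ± 0.28 in the combined sort. Of 17 genes of the serum response factor and MAP kinase input, 2 were higher in marrow G and 5 in marrow M, and between the intestinal and splenic sorts 2, 0 and 2 were higher and 6, 7 and 6 lower, to be read against the same shares of all genes. Mkl1, a coactivator of serum response factor, had 11.8 TPM in the intestinal G sort and 73.5 TPM in the splenic one.

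Of 31 further heat shock genes 1 was higher and 6 lower in marrow G, where 9.65% of all genes were higher and 9.49% lower. In marrow M 1 was higher and 7 lower, against 7.87% and 11.2% of all genes, and the HSP40 gene Dnajb2 fell by 3.29 (SE 0.23). Against spleen 6, 4 and 6 were higher in the intestinal G, M and combined sorts, near the shares of all genes. There 1, 1 and 0 were lower, against 22.2%, 25.7% and 19.9% of all genes. Bag3, an HSP70 cochaperone, was higher in each, by 3.08, 1.36 and 2.75, and Hsf1 itself was lower in G (-1.09 ± 0.17) and M (-1.13 ± 0.17). Of 17 chaperones of the endoplasmic reticulum 0 were higher and 2 lower in marrow G, 0 and 1 in marrow M, and 2 were higher and 1 lower in unsorted intestine against unsorted marrow. The marrow G count is near the 9.49% of all genes, and the last counts lie under the 19.9% and 19.4% of all genes.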

How the data were processed

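Sorted cells were lysed in Trizol, and stranded mRNA libraries were read as 75-base single reads, per the labels' protocols. The submitters' processing notes name STAR 2.6.1c, RSEM and mm10. The deposited values are TPM, estimated by the authors per gene, so counts and depth are unknown and their precision cannot be stated. All later steps were computed from them with limma 3.58.1 (R 4.3.3): a trend fit on log2(TPM + 1) with 13 group means over 39 libraries, for 18466 genes with at least 1 TPM in at least 3 libraries, with Benjamini-Hochberg adjustment, tested on simulated data. Genes named outside the members are those of each list with the largest called differences in a comparison, up to 4, at a level of at least 5 TPM. The members and lists were chosen with earlier results of these data known. Alternatives were a pseudocount of 0.1, no filter, rescaling by median ratios over 6908 genes, no fold minimum, only the groups compared, the library number as a block, and leaving out each library. Same-numbered libraries deviated together (every correlation over 0.1, from the data and not stated in the labels) in unsorted and combined intestine (0.59 to 0.643), APCmin/+ splenic G and M (0.375 to 0.555) and intestinal G and M (0.432 to 0.599). Promoters were searched for exact letters.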

Additional observations from a re-analysis of the deposited data

Results flagged for a closer look

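The following members differed in their effect between tissues by a test of the difference itself, with limma's adjusted p under 0.05 and a size of at least 1 on the log2(TPM + 1) scale. The mean difference of the G and M sorts from unsorted cells was smaller in the intestine than in marrow for the AP-1 genes Fos (-5.17), Jun (-3.20), Junb (-3.01), Fosl2 (-2.71), Fosb (-2.61), Atf3 (-1.81) and Jund (-1.21). It was smaller for the transcription factors Nr4a1 (-2.62), Klf2 (-2.48), Klf6 (-2.25) and Egr1 (-1.51). Among the genes grouped as feedback on the response it was smaller for Dusp1 (-3.09), Zfp36 (-3.07), Nfkbiz (-2.01), Socs3 (-1.67) and Dusp2 (-1.60). Among growth and survival genes it was smaller for Ier2 (-2.31), Rhob (-2.22), Ier3 (-1.71), Mcl1 (-1.30) and Gadd45b (-1.23). As a signed value it was larger for Ppp1r15a (2.64) and for the chaperones Hspe1 (1.46), Hsp90aa1 (1.21) and Hspd1 (1.19). These genes fell in both marrow sorts and were not called in the intestinal G or M sort. The positive sign therefore reflects the fall in marrow.

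The G to M difference was smaller in the intestine than in APCmin/+ spleen for Dusp1 (-1.78), Fosb (-1.68), Klf2 (-1.39) and Junb (-1.12). It was larger, for TPM as deposited only, for Hspd1 (1.36), Hsp90ab1 (1.01) and Hspe1 (1.01). These chaperone calls were lost after rescaling (0.955, 0.608 and 0.609), which left 0 positive and 17 negative member calls. Every call of this comparison was lost with only the groups compared.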

How the results depend on the processing

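Of 199 called member results none reversed under any alternative, and 42 lost their call without some library. Calls lost were 1 with a pseudocount of 0.1, 6 with no filter, 11 after rescaling, 0 with no fold minimum and 32 with only the groups compared, which leaves fewer libraries to estimate the spread. With the library number as a replicate block 1 was lost, Hsph1 in the marrow M sort (adjusted p = 0.0516), where the numbers do not pair the libraries, and the count in APCmin/+ splenic G against M went from 1 to 2, with no other call changed. The counts below moved by more than 1.5 times, and except for the construction just named the cause was not tested. Intestinal G against unsorted cells went from 5 members to 3 after rescaling, 10 with no fold minimum and 0 with only the groups compared, and leaving out 1 library gave 1 to 5. Intestinal M against unsorted went from 0 to 3 with no fold minimum, and leaving out 1 library gave 0 to 1. The intestinal combined sort went from 1 to 2 with a pseudocount of 0.1, 2 with no fold minimum and 0 with only the groups compared (1 to 3 without 1 library). Marrow G against M went from 9 to 16 with no fold minimum. BALB/c splenic G against M gave 2 to 5 without 1 library. APCmin/+ splenic G against M went from 1 to 0 with no filter, 2 after rescaling, 8 with no fold minimum and 0 with only the groups compared (0 to 6 without 1 library). Intestinal G against M went from 1 to 3 with a pseudocount of 0.1, 2 after rescaling, 3 with no fold minimum and 0 with only the groups compared (1 to 2). APCmin/+ against BALB/c went with no fold minimum from 5 to 11 in G, 6 to 12 in M and 5 to 8 in the combined sort, and with only the groups compared to 1, 2 and 2 (1 to 8, 2 to 11 and 2 to 6 without 1 library). The intestine minus spleen difference went from 7 to 17 after rescaling, 13 with no fold minimum and 0 with only the groups compared (4 to 10 without 1 library).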
